A study of Homo sapiens with 3 samples.

Results

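The genes described here are the epithelial adhesion molecule EPCAM and genes of the adherens junction, the contact at which neighbouring epithelial cells hold each other. The junction genes are the classical cadherins CDH1, CDH2, CDH3 and CDH11 and the catenins CTNNA1, CTNNA2, CTNNB1, CTNND1 and JUP. All of these genes were chosen by name, through the gene symbol that the platform annotation gives each probe, with EPCAM also known under its older symbol TACSTD1. All 10 were measured, by 11 probes, of 16225 named genes on the array. The samples were undifferentiated cells of 3 human embryonic stem (ES) cell lines, H9, BG03 and ES01, with 1 Illumina bead array of total RNA per line. The lines grew alike, on irradiated mouse embryonic fibroblasts in medium with 20% serum replacement and FGF2, and the labels name no genotype change and no treatment. The series calls the 3 lines biological replicates, and a difference between lines holds line, culture and array together. RNA of the feeder cells can be part of any level. The design also names mouse ES and epiblast stem cells, which are not analysed here.

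Cadherins are calcium-dependent receptors that bind the same cadherin on the next cell. Inside the cell, beta-catenin (CTNNB1) or its close relative plakoglobin (JUP) binds the cadherin tail, alpha-catenin links that complex to actin, and p120 catenin (CTNND1) holds the cadherin at the membrane. Beta-catenin is also the nuclear effector of WNT signalling. Human ES cells grow as tight epithelial sheets, and E-cadherin (CDH1) and EPCAM are widely used as surface markers of their undifferentiated state, whereas CDH2 and CDH11 are best known from neural and mesenchymal cells.

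Upstream sequence was at hand for 5 of the 10 genes, CDH2, CTNNA1, CTNNA2, CTNNB1 and JUP, in 13 windows of 250 bases that end just before a listed transcript start (RefSeq, GRCh38.p14). The windows below belong to a cadherin with a difference between lines beyond bead error (CDH2), to its link to actin (CTNNA1), and to CTNNB1 and JUP, alternative partners of the cadherin tail. Each is the first start listed for its gene, of 2 for CDH2, 4 for CTNNA1, 1 for CTNNB1 and 2 for JUP. Capitals mark the GC box GGGCGG or its reverse complement CCGCCC.
CDH2, chr18:28177131-28177380, minus strand: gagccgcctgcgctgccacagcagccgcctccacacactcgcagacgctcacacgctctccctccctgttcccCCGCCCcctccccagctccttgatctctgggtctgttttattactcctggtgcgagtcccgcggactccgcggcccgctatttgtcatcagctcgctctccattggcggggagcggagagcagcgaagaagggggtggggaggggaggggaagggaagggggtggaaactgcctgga
CTNNA1, chr5:138753175-138753424, plus strand: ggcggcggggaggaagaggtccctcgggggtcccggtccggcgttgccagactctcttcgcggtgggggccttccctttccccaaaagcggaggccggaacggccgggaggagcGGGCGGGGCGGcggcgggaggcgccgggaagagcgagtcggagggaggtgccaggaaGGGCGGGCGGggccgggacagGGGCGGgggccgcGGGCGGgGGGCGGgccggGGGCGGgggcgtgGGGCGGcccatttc
CTNNB1, chr3:41199255-41199504, plus strand: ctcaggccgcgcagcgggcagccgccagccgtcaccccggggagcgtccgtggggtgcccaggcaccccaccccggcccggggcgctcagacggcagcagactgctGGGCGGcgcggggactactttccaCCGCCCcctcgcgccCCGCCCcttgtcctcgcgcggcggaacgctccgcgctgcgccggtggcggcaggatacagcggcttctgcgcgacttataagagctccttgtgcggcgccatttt
JUP, first listed start, chr17:41786712-41786961, minus strand: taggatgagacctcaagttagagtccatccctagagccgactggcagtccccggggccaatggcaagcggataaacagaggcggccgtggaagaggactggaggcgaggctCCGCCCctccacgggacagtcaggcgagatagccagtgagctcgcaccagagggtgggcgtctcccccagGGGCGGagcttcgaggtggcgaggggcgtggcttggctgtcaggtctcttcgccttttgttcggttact
The GC box stood 9 times, overlapping copies included, in the printed window of CTNNA1, 3 times in that of CTNNB1, 2 times in that of JUP and 1 time in that of CDH2, and 42.6% of 35116 windows of this length held at least 1. CTNNA1 and CTNNB1 had 33 and 34 CG dinucleotides, and 91.9% and 93.2% of windows had fewer. CDH2 and JUP had 17 each, and 61.0% of windows had fewer. The other starts differed: those of CTNNA1 had 4, 0 and 0 GC boxes and 39, 3 and 8 CG dinucleotides, that of CDH2 had 0 and 4, and that of JUP 0 and 13. The E-box CACCTG, or its reverse complement CAGGTG, is the sequence that SNAI and ZEB repressors bind in the CDH1 promoter. Only the second listed start of JUP had it among the 13 windows, 54 and 43 bases before that start, and 17.5% of all windows held it. The 30 bases with both copies in capitals were as follows.
JUP, second listed start, chr17:41786007-41786036, minus strand: tggcccCACCTGccgagCAGGTGagcgcac
These matches describe letters in the windows. Neither binding nor methylation was measured.

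Signal in every line was found for 9 of the 10 genes, all except CDH11, where 59.8% of all measured genes passed in every line. To pass, a probe had to exceed the 95th percentile of the array's 215 probes for olfactory receptors, which came to 11.2, 12.6 and 13.3 intensity units in H9, BG03 and ES01. Triplets of values below are quantile-normalized intensities of H9, BG03 and ES01, and each error is the SD of log2 intensity (n = 3 lines). Values of different probes are not set against each other, since probes differ in how well they bind. No gene differed at least 2-fold between any pair of lines, where 3.24% of 11004 genes above background in some line did so between BG03 and H9, 5.14% between ES01 and H9 and 3.75% between ES01 and BG03, or 8.29% in any pair.

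**Figure D1:**
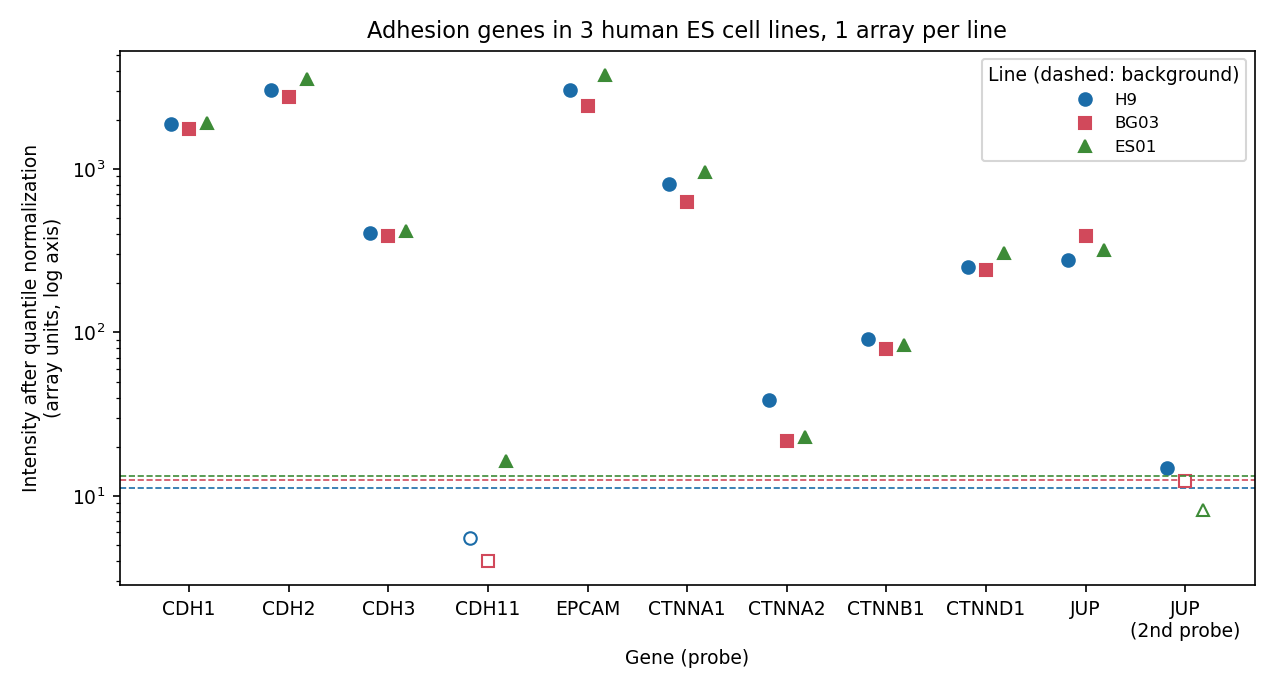
Intensity of each of the 11 probes (log axis, array units) in H9, BG03 and ES01, 1 point per array, with dashed lines at each array's background. Open points are not above background and the value of CDH11 in BG03, which is below 0, is drawn at the lower edge. All genes except CDH11 have filled points in every line, and the second JUP probe lies at background.

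Among the cadherins, E-cadherin was level across the lines after quantile normalization. CDH1 measured 1892, 1764 and 1917 (log2 SD 0.065), and the lines lay within 0.12 of each other on the log2 scale, where the median range over all genes was 0.36. P-cadherin, CDH3, an epithelial cadherin whose gene lies directly before CDH1 among the coding genes of chromosome 16, measured 405, 388 and 417 (log2 SD 0.051). Both genes thus had a narrower range than the middle gene of the array. With arrays scaled to the same median, a scaling described below, CDH1 in ES01 differed by -0.22 from H9 and by -0.23 from BG03. CDH3 differed by -0.24 and -0.25. The medians of all genes that passed in every line were then -0.29 and -0.36. The log2 ratio of CDH3 to CDH1 on the same array differed by 0.041 between BG03 and H9 and by 0.022 between ES01 and H9, which is less than the bead error of a difference at either probe (0.054 for CDH1 and 0.068 for CDH3, BG03 against H9). In the values as deposited these differences were -0.0031 and -0.024, so their direction depends on the scaling.

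N-cadherin, CDH2, the cadherin of neural and mesenchymal cells, was also well above background in every line, at 3043, 2769 and 3571 (log2 SD 0.19). ES01 was highest and BG03 lowest, a difference of 1.29-fold, and H9 lay between them. That difference, 0.37 on the log2 scale, is 7.12 times the combined bead error of the 2 arrays, which covers beads of an array and not cultures of a line. With arrays scaled to the same median it was 0.037, below that bead error of 0.051. That scaling, also given for other genes, rests on array medians of 3.5, 3.5 and 4.4 units in H9, BG03 and ES01. These medians lie below the background thresholds, so its factors come from probes without signal. CDH11, a cadherin of mesenchymal cells and bone-forming cells, measured 5.53, -0.97 and 16.4, so that only ES01 passed its threshold of 13.3. With the 99th percentile of the olfactory receptor probes as background no line passed, and no fold is given for it.

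Fibroblasts of the feeder layer express cadherins of this kind, so the fibroblast markers are given beside CDH2 and CDH11. The feeders were mouse cells, and how far each of these probes for human genes reads mouse RNA was not checked. The marker levels are therefore no measure of feeder content. Of 12 measured fibroblast markers, 8, 7 and 6 were above background in H9, BG03 and ES01, and their summed intensity was 2883, 2864 and 3004. That sum is mostly FBLN1 (1694, 1641 and 1447), lowest in ES01, and THY1 (752, 851 and 824), so it says little of the dimmer markers. The receptor PDGFRA (24.7, 16.9 and 6.37) was below background in ES01. The collagen genes COL1A1 (18.6, 22.0 and 43.2) and COL1A2 (310, 229 and 582) were highest in ES01, as CDH2 and CDH11 were, with ES01 2.33-fold over H9 for COL1A1 and 2.54-fold over BG03 for COL1A2. The matrix gene LUM was above background in BG03 alone (48.9), at least 4.37-fold over H9, and DCN in H9 and ES01 (30.5 and 26.4) but not BG03. The receptor PDGFRB passed in every line and was highest in ES01, and FAP passed in H9 alone. COL3A1, COL6A3 and POSTN did not pass in any line. The part of feeder RNA in the cadherin levels was not tested. In such bulk RNA, fewer cells of a type and less RNA per cell cannot be told apart.

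EPCAM, a surface glycoprotein that joins like molecules on neighbouring epithelial cells, measured 3027, 2439 and 3752 (log2 SD 0.31). ES01 was highest, 1.54-fold over BG03 and 1.24-fold over H9, and BG03 lowest. Each of these gaps exceeded the bead error, by 12.1 times for ES01 against BG03 and 5.62 times for ES01 against H9. With arrays scaled to the same median they shrank to 0.26 and 0.026 on the log2 scale, the latter below its bead error of 0.055. On the same array, the log2 ratio of EPCAM to CDH1 was higher in ES01 than in BG03 by 0.50 and higher than in H9 by 0.29.

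Among the catenins, alpha-E-catenin (CTNNA1) followed the same order as EPCAM, with 813, 625 and 965 (log2 SD 0.32), 1.54-fold higher in ES01 than in BG03. That gap of 0.63 on the log2 scale was 10.8 times the bead error, and was 0.27 with arrays scaled to the same median. Its neural paralogue CTNNA2, alpha-N-catenin, was dim, at 38.8, 21.7 and 23.1 (log2 SD 0.46), and was highest in H9. There it stood 1.79-fold over BG03 and 1.68-fold over ES01, the widest range of the 10 genes (0.84 on the log2 scale). The gap to BG03 was 3.12 times and that to ES01 2.87 times the bead error, which is large at such low signal. Under the 99th percentile background CTNNA2 was not above it in BG03. The log2 ratio of CTNNA2 to CTNNA1 was lower than in H9 by 0.46 in BG03 and by 1.0 in ES01.

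Beta-catenin, CTNNB1, was nearly level at 91.5, 78.9 and 83.7 (log2 SD 0.11). The largest gap between lines, 0.21 on the log2 scale, was 1.66 times the bead error. With arrays scaled to the same median, CTNNB1 in ES01 differed from H9 by -0.45, beyond its bead error of 0.13. The median of all genes that passed in every line was then -0.29. CTNND1, p120 catenin, measured 253, 242 and 304 (log2 SD 0.18) and was 1.26-fold higher in ES01 than in BG03, but not with arrays scaled to the same median (log2 difference -0.022), and with H9 close to BG03 (a log2 difference of -0.064, 0.83 times the bead error). Plakoglobin, JUP, which serves both adherens junctions and desmosomes, was the 1 gene of the 9 that was highest in BG03. It measured 277, 388 and 319 (log2 SD 0.25) at its brighter probe, so BG03 was highest, 1.40-fold over H9, a gap of 6.82 times the bead error. A second JUP probe, made for another transcript record, read 14.8, 12.3 and 8.17 and passed background in H9 alone, by a small margin. Which transcripts each probe reads was not checked.

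**Figure D2:**
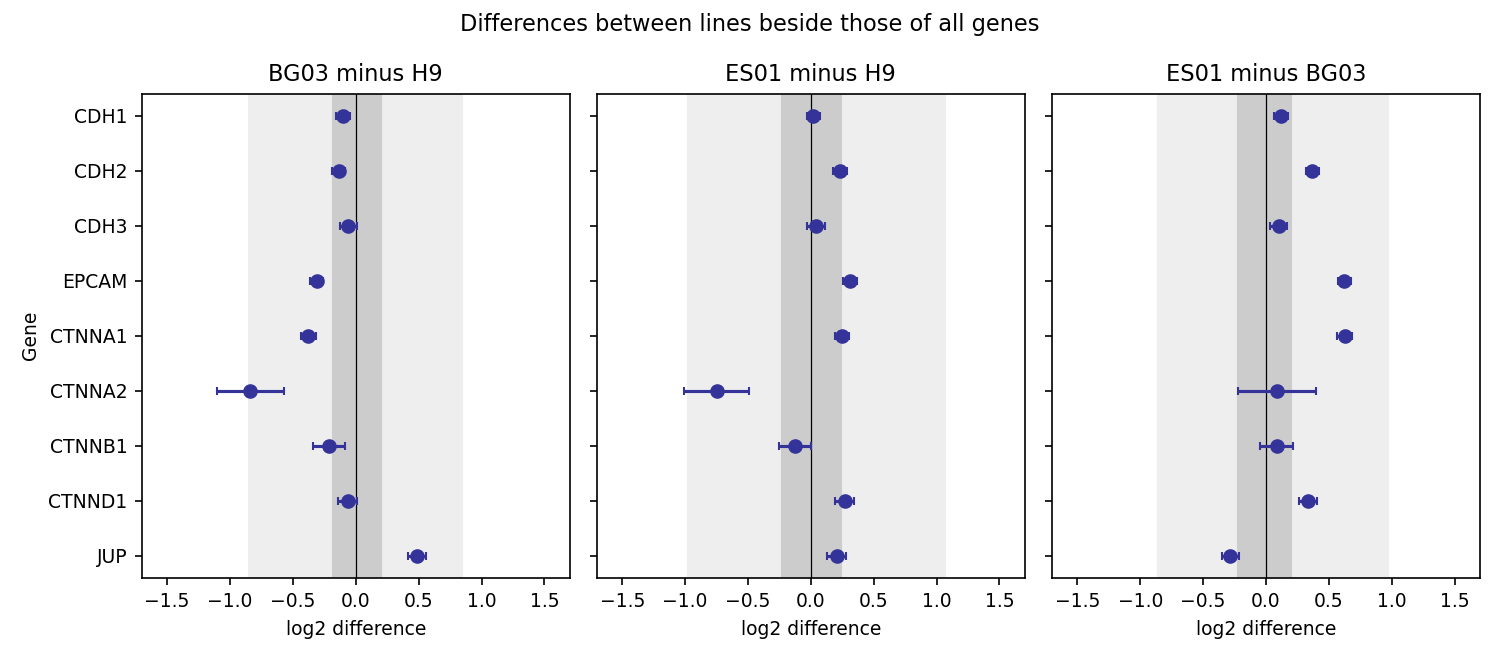
Log2 differences between each pair of lines for the 9 genes that passed in every line, with the combined bead error of both arrays as bars (1 standard error). Dark and light grey bands hold the middle 50% and 95% of all 11004 genes. No point lies outside the light band, and EPCAM and CTNNA1 lie beyond the dark band in every panel.

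Of the 9 genes above background in all lines, 8 were lowest in BG03 and 6 were highest in ES01, where 27% of all genes above background in all lines were lowest in BG03 and 34.5% highest in ES01. JUP was lowest in H9, as were 35.3% of all such genes, and none of the 9 was lowest in ES01, as were 37.7%. Between BG03 and H9 1 of 9 was higher in BG03 (JUP), against 52.5% of all such genes, with a median log2 difference of -0.14. Between ES01 and H9 7 of 9 were higher in ES01, against 49.8%, with a median of 0.21. Between ES01 and BG03 8 of 9 were higher in ES01, against 46.8%, with a median of 0.12. These genes were chosen for their function and not as independent draws, and the pairs share arrays, so the counts describe these arrays. Some ranks rest on gaps smaller than the bead error. BG03 lay below H9 by 0.89 times that error for CDH3 and 0.83 times for CTNND1. It lay below ES01 by 0.28 times for CTNNA2 and 0.65 times for CTNNB1. ES01 lay above H9 by 0.36 times for CDH1 and 0.59 times for CDH3.

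The direction depends in part on how arrays are scaled. In the values as deposited, 6 of 9 were lowest in BG03 (23.4% of all genes that passed in every line), since CDH1 and CDH3 lay above H9 there by 0.011 and 0.0080, and 6 of 9 were highest in ES01 (35.5%). Scaled to the same 75th percentile, 5 of 9 were lowest in BG03 (21.4%) and 6 of 9 highest in ES01 (32%). Scaled to the same median, the order turned: 6 of 9 were lowest in ES01 (73.2%), 1 of 9 was highest there (8.47%) and 3 of 9 were lowest in BG03 (10.6%). That scaling moved the median difference of all such genes to -0.29 between ES01 and H9 and to -0.36 between ES01 and BG03. Its factors come from array medians over all probes of 3.5, 3.5 and 4.4 units in H9, BG03 and ES01, which lie below background. Relative to the median of all such genes, 1 of 9 lay above it for BG03 against H9, 7 of 9 for ES01 against H9 and 8 of 9 for ES01 against BG03, both after quantile normalization and in the values as deposited. A single factor per array moves each gene and that median alike, so the scalings to the same median or 75th percentile cannot change these counts.

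**Figure D3:**
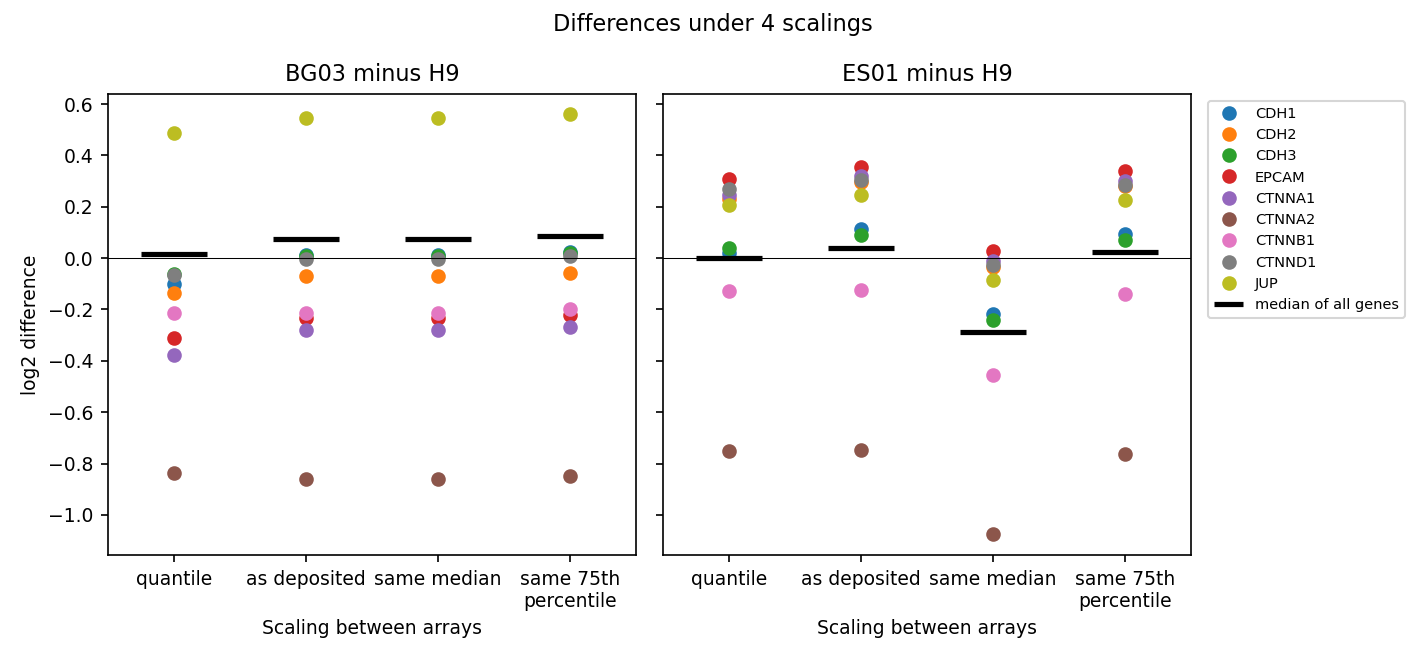
Log2 differences of 9 genes between BG03 and H9 (left) and ES01 and H9 (right) under 4 scalings between arrays, with a black bar at the median of all genes above background in all lines. Scaling to the same median shifts ES01 down for every gene shown, to 1 of 9 above H9. Multiplying an array by a factor moves points and bar together, and after quantile normalization 7 of 9 points lie above the bar on the right and 1 of 9 on the left.

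Ratios of genes on an array do not move when the array is multiplied by a factor, though quantile normalization can move them, and they show where genes differed unequally. JUP to CTNNB1 was the ratio that set BG03 apart, higher there by 0.70 on the log2 scale (1.63-fold) than in H9 and by 1.29-fold than in ES01. With both JUP probes averaged, the gap to H9 was 0.34. CTNND1 to CTNNB1 was higher in ES01 than in H9 by 0.40 and than in BG03 by 0.25. CDH2 to CDH1 was higher in ES01 than in H9 by 0.21 and than in BG03 by 0.25, and H9 and BG03 differed by -0.035. CTNNB1 to CDH1 stayed within 0.15 across the lines, and in the values as deposited was lower than in H9 by 0.22 in BG03 and 0.24 in ES01. No test exists for these ratios, since each line has 1 array.

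**Figure D4:**
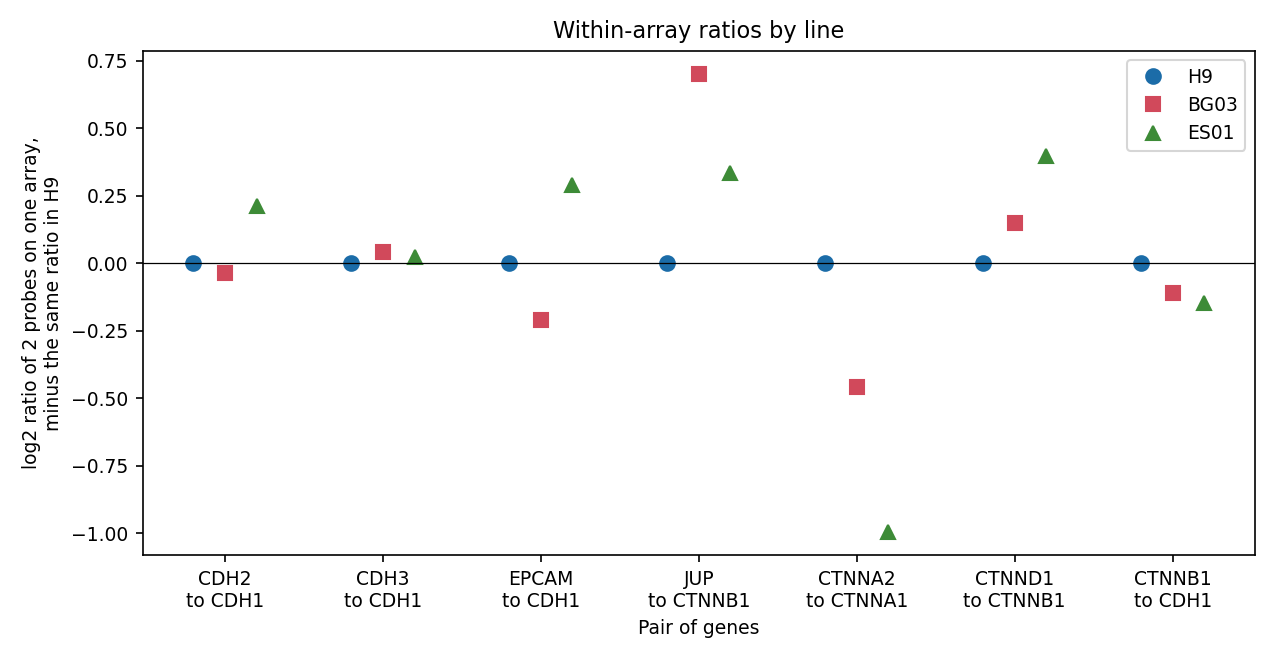
Log2 ratio of 2 genes' probes on the same array, minus that ratio in H9, for 7 pairs of genes, 1 point per line. JUP to CTNNB1 is highest in BG03 (0.70), CTNNA2 to CTNNA1 lowest in ES01 (-1.0), and CDH3 to CDH1 lies near 0 in every line.

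The only test across genes that 3 arrays of a single group allow asks whether a gene's variance over the lines exceeds what its intensity predicts. Run with limma's squeezeVar, it called 0 of the 10 genes and 0% of the 11004 genes tested, at an adjusted p (Benjamini-Hochberg) under 0.05. At an unadjusted p under 0.05 it had 0 of the 10 and 516 of the 11004 genes, and the robust fit also called 0 of the 10. The lowest p among the 10 genes in this limma test was that of EPCAM (0.0585, adjusted p = 0.978), followed by CTNNA1 (0.0913, adjusted p = 0.978). The predicted variance was itself fitted to the variances of these genes between the lines. The test can thus only find genes that vary more than others of like intensity, and not differences that many genes share. With 3 arrays it also has little power, so its result does not show that the lines were alike.

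Around these genes, the junction machinery was mostly present and the other cadherins mostly not. Of 16 other measured cadherins, 2 were above background in all lines and 12 in none. CDH6, a type II cadherin of kidney and neural crest, measured 37.3, 57.5 and 41.0, and the vascular cadherin CDH5 and the neural cadherins CDH7 and CDH8 passed in none. Of 18 partners of the junction plaque, 15 were above background in all lines. The alpha-catenin relative CTNNAL1 measured 598, 463 and 465. CTNNA3, an alpha-catenin of heart and testis, passed only in ES01 (14.1), and CTNND2, the neural p120 relative, only in H9 (15.8). NECTIN1, an immunoglobulin-type adhesion receptor that starts junctions beside cadherins, had the widest gap, at 17.4, 37.5 and 63.6, or 3.66-fold higher in ES01 than in H9. ARVCF, another p120 relative, was above background in H9 and BG03 (26.5 and 28.2) and not in ES01, at least 2.13-fold lower there than in BG03. Over those 15, ES01 exceeded H9 by a median of 0.31 on the log2 scale, and 9 of 15 were higher in ES01, a share near the 49.8% of all genes that passed in every line.

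For beta-catenin turnover and its TCF partners, 14 of 18 were above background in all lines and none differed 2-fold. The scaffold of the destruction complex AXIN1 measured 333, 395 and 362 and APC 30.03, 21.0 and 24.4. APC2 passed in H9 alone (24.0). AXIN2, a target gene that WNT signalling switches on, passed in none (2.30, 3.93 and -3.43). A signal at background does not show that a transcript is absent. Of 6 measured EPCAM partners 5 were above background in all lines. CLDN7, the claudin that binds EPCAM, measured 944, 1038 and 923, and the tetraspanin CD9 2741, 2780 and 2772. The hyaluronan receptor CD44 measured 63.6, 64.5 and 101.6, highest in ES01 as EPCAM was, and the tetraspanin TSPAN8 passed in none.

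Of 11 measured repressors of CDH1, 5 were above background in all lines and 4 in none. Those in all lines were TWIST2, TCF3, TCF4, KLF8 and GSC. The classic repressors SNAI1, SNAI2 and ZEB1 were in none, and ZEB2 (14.8, 9.93 and 16.8) passed narrowly in H9 and ES01. TWIST1 measured 9.67, 24.5 and 45.4, below background in H9 and at least 4.05-fold higher in ES01 than in H9. Of 12 epithelial regulators, 7 were above background in all lines, near the share of all measured genes. Among them OVOL2 (3749, 3918 and 3768), ESRP1 (1698, 1710 and 1757) and ESRP2 (1170, 1227 and 1265) were bright and nearly level. TFAP2C measured 226, 253 and 253, and KLF4 99.9, 98.9 and 181. GRHL1 and OVOL1 passed in no line. GRHL2, a grainyhead factor that activates CDH1, passed in BG03 alone (32.3, at least 2.88-fold over H9). GRHL3 passed in both BG03 and ES01 (19.8 and 47.0, at least 4.20-fold higher in ES01 than in H9). ELF3, an epithelial ETS factor, measured 12.3, 32.6 and 39.5, and KLF5 27.0, 23.6 and 76.7. Whether any of these repressors or regulators acts on CDH1 in these cells was not tested.

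**Figure D5:**
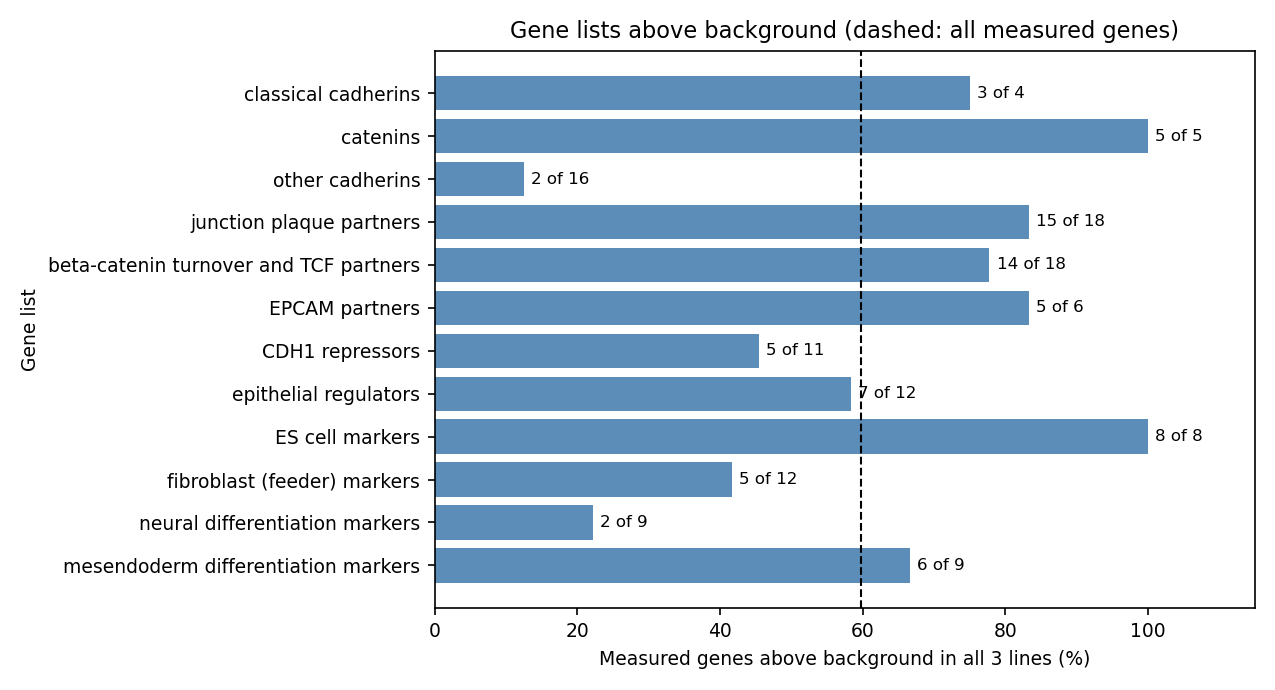
Share of measured genes above background in all 3 lines for each gene list, with the count at the bar and a dashed line at 59.8%, the share of all measured genes. Catenins (5 of 5), ES cell markers (8 of 8) and junction plaque partners (15 of 18) reach past the line, and other cadherins (2 of 16) and neural markers (2 of 9) fall short of it.

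The arrays carried the markers of the labelled cell type. All 8 measured ES cell markers were above background in every line, among them POU5F1 (270, 287 and 195), NANOG (130, 123 and 127), LIN28A (5466, 5837 and 6489) and DNMT3B (6715, 7558 and 9013). POU5F1 was lowest in ES01, NANOG was level, and DNMT3B was highest in ES01. Of 9 neural markers 2 were above background in all lines, TUBB3 (1348, 1269 and 1575) and DCX (34.4, 76.3 and 55.4), where 59.8% of all measured genes were. SOX1, NEUROG1, NEUROG2 and MAP2 were in none. PAX6 passed in BG03 and ES01 (14.8 and 24.2), OLIG2 in H9 and BG03 (38.8 and 52.8), and NCAM1 in H9 and ES01 (16.3 and 15.6). Of 9 mesendoderm markers 6 were above background in all lines, with MIXL1 at 15.7, 17.0 and 19.6, AFP lowest in H9 (148, 322 and 383), and TBXT, MESP1 and TBX6 in none. The others in all lines were FOXA2 (222, 185 and 195), SOX17 (99.2, 92.4 and 104.9), GATA4 (68.7, 77.4 and 83.0) and KDR (60.6, 44.4 and 47.9). Whether differentiating cells add to CDH2 or CTNNA2 was not tested.

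Over the 3 lines, the pathway genes with the pattern most like that of CDH1 were the splicing regulator ESRP1 (1698, 1710 and 1757), TCF7L1 (1903, 1856 and 1851) and CD9, at distances of 0.082, 0.088 and 0.10 between centred log2 values, of 48 genes ranked. For EPCAM they were KLF8 (81.5, 73.1 and 106), FHL2 (288, 264 and 410) and GSC (149, 108 and 151), at 0.11, 0.16 and 0.21. With 3 points such likeness is common: 588 of all genes above background in all lines lay as near to CDH1 as ESRP1 did, and 143 as near to EPCAM as KLF8.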

How the data were processed

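Total RNA was extracted with TRIzol and labelled with Cy3 for Illumina whole-genome arrays, per the labels' protocols. The deposited table gives 1 intensity per probe and array on a linear scale; 33.8%, 32.8% and 26.3% of values in H9, BG03 and ES01 were below 0, so background had been subtracted by the authors. Neither the software nor a scaling between arrays is named in the sources used here. Per the file headers, the deposited bead files hold a green intensity for each bead (2089034 to 2102778 beads an array, median 42 per bead type), and their bead codes were not matched to genes.

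Of 47293 probes 18468 had 1 gene symbol, 0 several and 28825 none here. After 4 control probes were left out, arrays were quantile-normalized (limma 3.58.1, R 4.3.3). The probe with the highest mean stood for a gene, lower values were raised to the background threshold, and log2 was taken. A fold against a line not above background is a lower bound at that array's threshold. Differences cover the 11004 genes that passed in any line; directions over a list used those above it in all lines. Bead error at a gene's level was the median standard error of 201 bead types at the same rank on that array, beads over 3 median absolute deviations left out, and took 1 unit of the table as 1 unit of the bead files. The number of arrays limits the precision. Variances were tested by limma's squeezeVar with an intensity trend and an F-test. Array scaling, background threshold, probe rule and variance test were tried on simulated arrays. The differences planted there were far larger than those of these genes, so the runs do not show what the test finds at such sizes. Every gene of the set was named, and from each other list the first 4 measured genes, those differing at least 2-fold and those most like CDH1 and EPCAM. Every measured fibroblast, neural and mesendoderm marker was also named, as was every CDH1 repressor and epithelial regulator that passed in all lines. Those outside that rule, POSTN, FBLN1, THY1 and PDGFRA among them, were added after their values were seen. The genes and lists were chosen with earlier results of these data known. Python 3.11.15, numpy 2.4.6, pandas 2.3.3 and matplotlib 3.10.9 made bead summaries and figures. Alternatives covered scaling, background, probe rule, floor, filter, prior, fold threshold and leaving out each line.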

Additional observations from a re-analysis of the deposited data

How the results depend on the processing

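The count above background in all lines stayed at 9 of 10 in 8 of the 9 alternatives tried and was 8 with the 99th percentile background. The variance test in limma called 0 of the 10 genes in all 13 alternatives (lowest adjusted p over all of them 0.209, for EPCAM), while over all genes it called 88 with arrays scaled to the same median and 405 with dim genes kept in, where the reported count is 0. Genes at least 2-fold apart numbered 0 in each pair, except 1 between ES01 and H9 with the same median (CTNNA2) and, at a 1.5-fold threshold, 1 for BG03 against H9, 1 for ES01 against H9 and 2 for ES01 against BG03. Of all genes, 1308, 1798 and 1481 passed 1.5-fold, and 126, 226 and 165 passed 2-fold with a floor of 50 units, against 357, 566 and 413. The 2-fold counts were 199, 385 and 263 with the 99th percentile background, 237, 416 and 301 with a floor of 20 units, and at 3-fold the counts were 88, 143 and 87. Without quantile normalization the CDH3 to CDH1 ratio differed from H9 by -0.0031 in BG03 and -0.024 in ES01, and the CTNNB1 to CDH1 ratio by -0.22 and -0.24; scaling by a factor per array cannot move a ratio, so quantile normalization alone makes this change. CDH11 was below background in H9 and BG03, so its log2 ratio to CDH1 only reads the floor there and is no measurement of the gene: ES01 against H9 gave 0.53 as computed for the report, -0.25 (and -0.64 against BG03) with the 99th percentile background, 0.85 with the second background set, and -0.019 (-0.12 against BG03) with 1 floor of 20 units. With the 99th percentile background the CTNNA2 to CTNNA1 ratio was 0.043 for BG03 against H9 and -1.04 for ES01 against BG03, since CTNNA2 then sat at the floor in BG03. With all probes averaged, JUP to CTNNB1 was 0.34 for BG03 against H9. Leaving out each line says little here, since there were no calls to change and the remaining pair keeps its values apart from the normalization. Signal limits CDH11, CTNNA2 and the second JUP probe, which lie near background.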
